A study of Mus musculus with 18 samples.

Results

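The 76 genes described here encode proteins of the mitochondrial ribosome, and they were measured in mouse bone marrow among 18194 genes in all. A gene was a member where at least 1 probeset of the array was annotated to a single symbol starting with Mrpl or Mrps and a digit, pseudogenes being dropped. Symbols alone decided which genes were members, but the set was chosen for study with earlier results of these data known. Where a member had several probesets, the brightest stood for the gene, as for every other gene. All 76 members passed the filter on dim genes, which kept 14505 genes for testing. A further 4 probesets that carry a second symbol were left out, so Mrpl30 and Mrpl53 are not represented.

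Total RNA from the flash-frozen bone marrow cells of 18 C57Bl6 mice was hybridised to Affymetrix arrays, 1 array and 1 biological replicate per mouse. The groups were 4 wild-type (WT) mice, 4 CCAT2-G mice, 4 CCAT2-T mice and 6 CCAT2-GT mice. The engineered animals overexpress the G or the T form of CCAT2, a long non-coding RNA, in all tissues. The labels call the CCAT2-G and CCAT2-T mice DRAI- and the CCAT2-GT mice DRAI+ without defining the term. They give neither the promoter behind the overexpression nor the age of the mice. Which form or forms the CCAT2-GT mice carry is not stated in the labels either. The series title concerns myeloid malignancy, and the main question taken up below is whether marrow with the G form differed from marrow with the T form. CCAT2 itself was not analysed here, so the genotype rests on the labels.

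Mitochondria keep a small genome that codes for a few subunits of the respiratory chain, and they translate those messages on ribosomes of their own. The ribosomal RNAs of these particles come from the mitochondrial genome, but every one of their proteins is encoded in the nucleus, made in the cytosol and imported. Some of the proteins descend from those of bacterial ribosomes, and others were added in the line that led to mitochondria. The small subunit binds and decodes the message, and the large subunit joins amino acids and feeds the growing chain to the inner membrane. Dividing and maturing marrow cells, erythroid cells among them, need newly made respiratory chains.

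These genes lie on many chromosomes, and their promoters are shown first. Whether promoters play a part in the levels was not tested. RefSeq gives a promoter window on build GRCm38.p6, from 250 bases before a transcript's start to 50 after it, for 67 of the 76 members. The windows of the 4 members with the smallest p in the comparison of CCAT2-G with CCAT2-T follow, 5′ to 3′ on the strand of the gene. Capitals mark the motifs searched for.
Mrps24 (chr11:5707652-5707951, minus strand): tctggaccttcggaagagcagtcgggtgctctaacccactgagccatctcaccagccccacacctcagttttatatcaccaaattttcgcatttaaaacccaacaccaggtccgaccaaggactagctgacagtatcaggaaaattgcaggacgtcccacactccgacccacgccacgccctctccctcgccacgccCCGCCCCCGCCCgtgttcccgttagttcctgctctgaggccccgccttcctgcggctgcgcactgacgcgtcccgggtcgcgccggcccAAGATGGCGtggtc
Mrps18a (chr17:46110754-46111053, plus strand): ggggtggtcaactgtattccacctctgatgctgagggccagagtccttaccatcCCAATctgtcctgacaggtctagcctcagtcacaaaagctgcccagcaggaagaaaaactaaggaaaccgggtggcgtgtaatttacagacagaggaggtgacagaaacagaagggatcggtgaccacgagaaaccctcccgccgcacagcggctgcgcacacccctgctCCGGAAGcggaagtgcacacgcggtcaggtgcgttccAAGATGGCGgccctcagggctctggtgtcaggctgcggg
Mrpl16 (chr19:11770165-11770464, plus strand): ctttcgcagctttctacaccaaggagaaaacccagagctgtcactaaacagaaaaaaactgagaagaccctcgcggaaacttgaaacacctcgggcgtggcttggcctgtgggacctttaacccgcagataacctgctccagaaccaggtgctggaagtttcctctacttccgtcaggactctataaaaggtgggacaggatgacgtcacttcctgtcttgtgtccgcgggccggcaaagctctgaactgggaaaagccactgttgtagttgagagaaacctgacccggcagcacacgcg
Mrpl3 (chr9:105053018-105053317, plus strand): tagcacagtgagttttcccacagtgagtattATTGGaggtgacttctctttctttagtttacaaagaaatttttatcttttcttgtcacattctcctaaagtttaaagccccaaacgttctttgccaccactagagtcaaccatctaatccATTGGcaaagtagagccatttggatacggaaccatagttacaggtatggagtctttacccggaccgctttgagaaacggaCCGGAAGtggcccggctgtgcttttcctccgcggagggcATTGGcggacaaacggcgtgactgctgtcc

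On both strands, the letters searched were GCATGCGC for NRF1, a regulator of nuclear genes for mitochondrial proteins, CCGGAAG for ETS family factors, AAGATGGCG for YY1, GGGCGG for the GC box of SP1, CCAAT for NF-Y and CACGTG for the E-box of Myc and Max. In the Mrps24 window the YY1 letters begin 37 bases after the start, and a pair of GC boxes lies 53 and 47 bases before it. Mrps18a has the ETS letters 26 bases before the start and the YY1 letters 12 bases after it. Mrpl3 has the ETS letters 19 bases before the start and holds the NF-Y letters at 3 places. None of the 6 motifs was found in the Mrpl16 window, which says only that these letters are not in it. ETS letters were in the windows of 25 of 67 members, and counted by window they were in 34.3% of the 73 member windows and 8.86% of all 32851 windows. YY1 letters were in 11.0% of member windows and 1.40% of all windows, and NRF1 letters in 11.0% and 2.71%. GC boxes were in 53.4% and 35.7%, NF-Y letters in 39.7% and 37.4%, and E-boxes in 9.59% and 7.15%. The median difference between CCAT2-G and CCAT2-T was 0.43 for the 8 members with the YY1 letters and 0.30 for those without. For the ETS letters it was 0.31 with and 0.30 without, and for NRF1 0.26 with and 0.30 without. For GC boxes it was 0.31 with and 0.30 without, and for both NF-Y letters and E-boxes 0.29 with and 0.31 without. None of these gaps was tested, and that of YY1 is the largest of the 6. These matches describe the letters only, and no binding was measured.

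Markers of marrow cells were bright on every array: the mean of the neutrophil markers was 11.8 to 12.6 on the log2 scale, and that of the erythroid markers 10.1 to 11.1. Values for single members below are log2 levels of the probeset that stands for the gene, on which 1 unit is a doubling. On 5 arrays, here called narrow, values were spread less widely, with an interquartile range of 2.90 to 3.07 against 3.15 or more on the other 13. They belong to replicates 1 and 2 of WT, replicates 1 and 2 of CCAT2-T, and replicate 1 of CCAT2-G. No label names a batch. The female-specific RNA Xist was at 10.7 or more in 4 mice, CCAT2-T replicate 3 together with replicates 2, 3 and 5 of CCAT2-GT, and did not pass 4.05 in the others. The top 3 mice for stroma markers were replicates 4 and 6 of CCAT2-GT and WT replicate 4. Values without these arrays are given beside some of the results that they move, and not beside all.

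The members varied together across mice. The first principal component of the 76 genes over the 18 mice held 62.7% of their variance and the second 10.5%. In each mouse the deviation of every member from its own 18-mouse mean was taken, and the median of these deviations was -0.17, -0.09, -0.02 and 0.22 in WT replicates 1 to 4. It was -0.24, 0.23, 0.19 and 0.26 in CCAT2-G replicates 1 to 4 and -0.26, -0.26, -0.21 and 0.06 in CCAT2-T replicates 1 to 4. In the 6 CCAT2-GT mice it ran from -0.13 to 0.28, with replicates 2 and 6 at 0.27 and 0.28 and the others at 0.0028 or less. So 3 CCAT2-G mice stood high and 3 CCAT2-T mice low, but CCAT2-G replicate 1 lay below CCAT2-T replicate 4 and the groups overlapped. In CCAT2-G replicates 2, 3 and 4, 71, 65 and 69 of the 76 members were above their own mean. The counts were 6, 1 and 21 in CCAT2-T replicates 1, 2 and 3. CCAT2-G replicate 1 had 7 and CCAT2-T replicate 4 had 50. All 5 narrow arrays lay below 0.

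**Figure D1:**
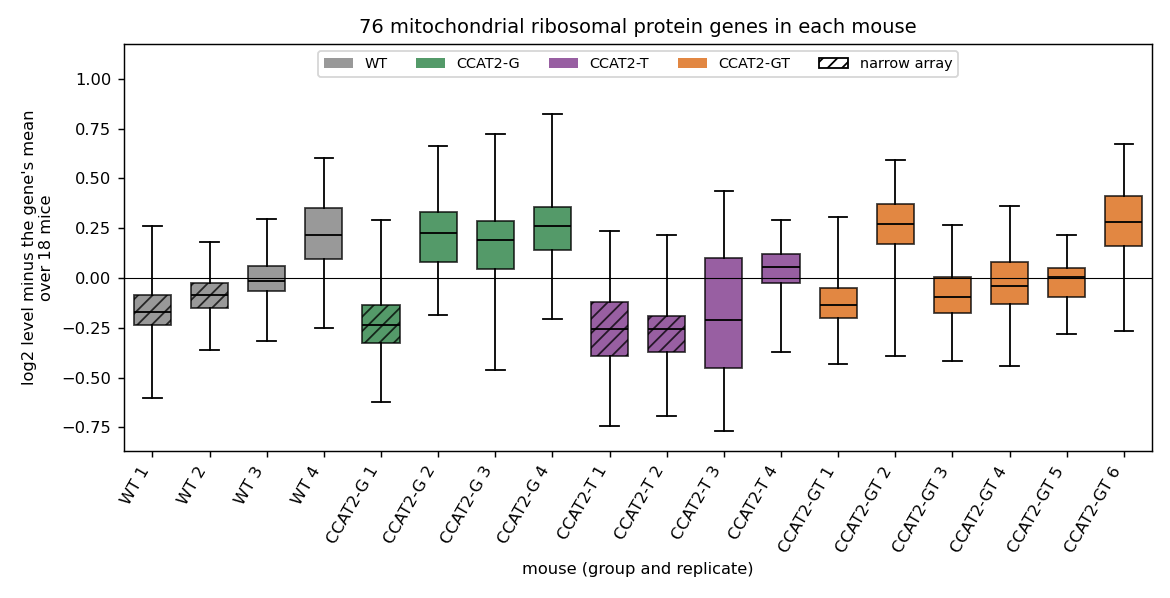
Deviation of the 76 genes from their own 18-mouse mean (log2, y axis) in each mouse (x axis), as a box with the median and quartiles and whiskers to the lowest and highest gene; hatched boxes are the 5 narrow arrays. The boxes of CCAT2-G replicates 2 to 4 lie above 0, with medians of 0.19 to 0.26, and the 5 hatched boxes lie below it.

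Mitochondrial ribosomal protein genes were almost all higher in CCAT2-G than in CCAT2-T marrow, but by little, and not one passed the test. Of the 76 members, 73 were higher and 3 lower, with a median log2 difference of 0.30, while over all 14505 genes tested 49.4% were higher and the median was -0.0031. The quartiles of the members were 0.18 and 0.37, and the range was -0.17 to 0.71. Per mouse, the mean level of the 76 members was 7.62 ± 0.22 (SD, n = 4) in CCAT2-G, 7.34 ± 0.15 (SD, n = 4) in CCAT2-T, 7.50 ± 0.17 (SD, n = 4) in WT and 7.55 ± 0.18 (SD, n = 6) in CCAT2-GT. In bulk marrow, fewer cells that express a gene and less of its RNA per cell cannot be told apart.

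Tested gene by gene with limma over all 14505 genes and with Benjamini-Hochberg adjustment at a threshold of 0.05, 0 genes passed (0%), and so did 0 of 76 members. The smallest adjusted p was 0.0579 over all genes and 0.743 among the members. At an unadjusted p under 0.05, 24 members were higher, or 31.6%, where 4.21% of all genes were. In the other direction it was 0 members against 2.08% of all genes. Members share mice and vary together, so these 24 are not separate observations. All CCAT2-G mice lay above all CCAT2-T mice for 2 of 76 members, Mrps24 and Mrpl32, where 1.16% of all genes had such groups. The SE of a member's difference was 0.11 to 0.28, with a median of 0.17.

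**Figure D2:**
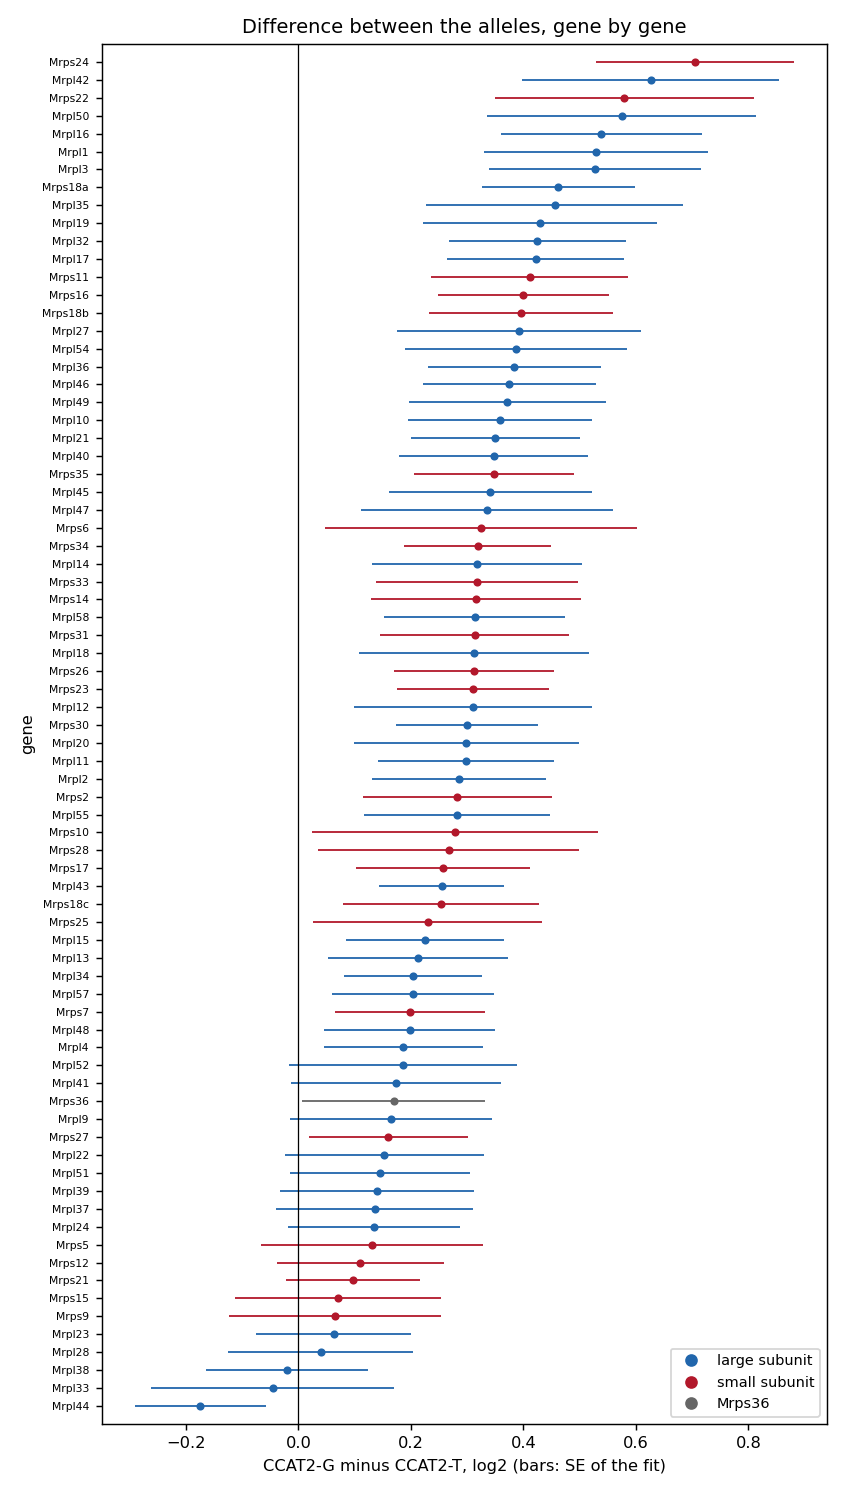
Difference of CCAT2-G minus CCAT2-T (log2, x axis) for each of the 76 genes (y axis), with bars of 1 SE from the fit, coloured by ribosomal subunit. Mrps24 is at the top at 0.71, and Mrpl38, Mrpl33 and Mrpl44 are the 3 genes below 0.

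Members of both subunits were higher. Of the 49 members that sit in the large subunit 46 were higher, with a median of 0.30, and of the 26 in the small subunit all 26 were, also with a median of 0.30. The remaining member, Mrps36, has a ribosomal name but is known as an adaptor of a mitochondrial dehydrogenase complex, and it differed by 0.17 (SE 0.16). By descent, the 28 large-subunit members with bacterial counterparts had a median of 0.31 and the 21 others 0.28. In the small subunit the medians were 0.26 for the 16 with bacterial counterparts and 0.32 for the 10 without. Differences between these classes were not tested.

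In the small subunit, Mrps24, the counterpart of the bacterial protein S3 at the entry of the message, had the smallest p of the 76. Its level was 8.97, 8.97, 9.41 and 8.80 in the 4 CCAT2-G mice and 8.35, 8.29, 8.06 and 8.62 in the 4 CCAT2-T mice. The groups do not overlap, and the lowest CCAT2-G mouse was replicate 4, while the narrow replicate 1 stood with the others. WT mice were at 8.44, 8.51, 8.57 and 8.99, and CCAT2-GT mice from 8.37 to 9.11 with a median of 8.64, so both groups spanned much of the gap. The means were 9.04 ± 0.26 (SD, n = 4) in CCAT2-G and 8.33 ± 0.23 (SD, n = 4) in CCAT2-T, a difference of 0.71 (SE 0.18, limma, unadjusted p = 0.000847, adjusted p = 0.743).

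Other proteins of the small subunit differed by less. Mrps22, in which mutations cause mitochondrial disease, was higher by 0.58 (SE 0.23). It ran from 6.52 to 7.52 in CCAT2-G and from 6.11 to 6.81 in CCAT2-T, and the ranges overlap through the low CCAT2-G replicate 1. Mrps34, also a disease gene, was at 7.48, 7.85, 7.71 and 7.82 in CCAT2-G and 7.32, 7.31, 7.41 and 7.55 in CCAT2-T, a difference of 0.32 (SE 0.13). Again only CCAT2-G replicate 1 fell among the CCAT2-T values. Mrps12, the counterpart of the decoding-site protein S12, differed by 0.11 (SE 0.15), and Mrps2 by 0.28 (SE 0.17). The 3 paralogs related to bacterial S18 were all higher, Mrps18a by 0.46 (SE 0.14), Mrps18b by 0.40 (SE 0.16) and Mrps18c by 0.25 (SE 0.17). Of these, Mrps18a belongs to the large subunit. Mrps6, the most variable member with an SD of 0.40 over the 18 mice, was at 5.72, 6.40, 5.45 and 6.74 in CCAT2-G and 5.34, 5.24, 6.25 and 6.18 in CCAT2-T. Its groups interleave.

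In the large subunit the smallest p was that of Mrps18a, which despite its name sits there. It was at 6.67, 6.76, 7.09 and 7.00 in CCAT2-G and 6.37, 6.41, 6.15 and 6.74 in CCAT2-T. CCAT2-T replicate 4 lay just above CCAT2-G replicate 1, so the groups overlap at 1 mouse each. The difference was 0.46 (SE 0.14, limma, unadjusted p = 0.00316, adjusted p = 0.743).

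Mrpl16, which lies near the site where amino acids are joined, was at 7.54, 8.11, 7.98 and 8.33 in CCAT2-G and 7.47, 7.53, 7.03 and 7.79 in CCAT2-T. Mrpl3, a counterpart of bacterial L3, was at 7.14, 7.75, 7.50 and 7.87 in CCAT2-G and 7.11, 7.15, 6.57 and 7.32 in CCAT2-T. In both genes CCAT2-T replicate 3 was the lowest of all 18 mice, and CCAT2-G replicate 1 lay among the CCAT2-T mice. Mrpl16 differed by 0.54 (SE 0.18) and Mrpl3 by 0.53 (SE 0.19), each with adjusted p = 0.743 by limma.

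Mrpl42, found only in mitochondrial ribosomes, differed by 0.63 (SE 0.23) and was at 7.80, 8.66, 8.55 and 8.67 in CCAT2-G against 7.59, 7.80, 7.55 and 8.24 in CCAT2-T. Mrpl32, a zinc-binding protein that is trimmed by a protease before assembly, was at 8.24, 8.70, 8.48 and 8.65 in CCAT2-G and 8.20, 8.11, 7.85 and 8.21 in CCAT2-T. Here CCAT2-G replicate 1 stayed just above the highest CCAT2-T mouse. Mrpl32 and Mrpl17 each differed by 0.42 (SE 0.16). Mrpl1 differed by 0.53 (SE 0.20), with 5.34, 5.81, 6.02 and 5.99 in CCAT2-G and 4.89, 5.03, 5.47 and 5.66 in CCAT2-T.

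The proteins of the stalk, where translation factors dock, were higher with the G form by similar amounts. Mrpl12, the stalk protein itself, was at 7.86, 8.65, 8.06 and 8.89 in CCAT2-G and 8.08, 7.69, 8.36 and 8.09 in CCAT2-T. Its 4 CCAT2-G mice split into a high and a low pair, and the difference was 0.31 (SE 0.21). Mrpl10 and Mrpl11, at the base of the stalk, differed by 0.36 (SE 0.16) and 0.30 (SE 0.16). Mrps30, a large-subunit protein despite its name, differed by 0.30 (SE 0.13).

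The 3 members that were lower in CCAT2-G were all in the large subunit. Mrpl44, which carries a domain related to RNase III, differed by -0.17 (SE 0.12) and was at 7.61, 7.73, 7.83 and 7.83 in CCAT2-G and 8.09, 7.76, 7.94 and 7.90 in CCAT2-T. Mrpl33 differed by -0.05 (SE 0.22), with CCAT2-G mice from 8.51 to 9.73 and CCAT2-T mice from 8.78 to 9.45, so that the second group lay within the first. Mrpl38 differed by -0.02 (SE 0.14). Its low mice were CCAT2-T replicate 4, at 6.51, and WT replicates 3 and 4, at 6.57 and 6.55. The 2 smaller differences lay within 1 SE of 0.

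**Figure D3:**
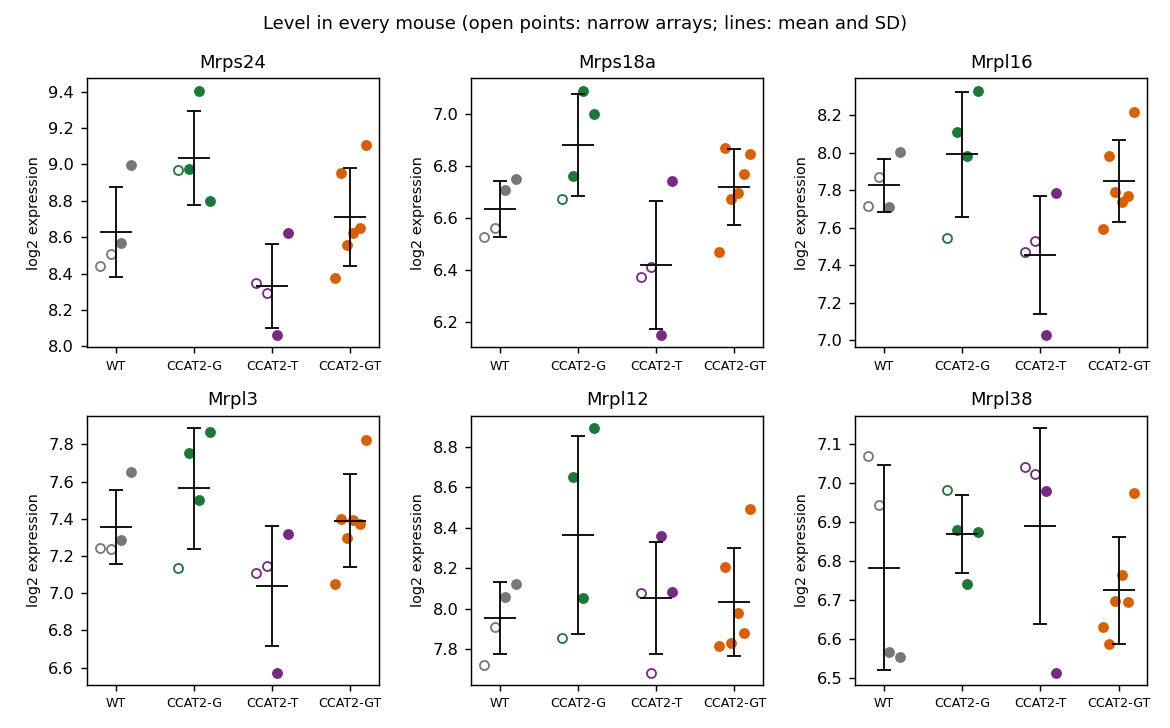
Log2 level (y axis, a separate scale per gene, not starting at 0) of 6 genes in every mouse of the 4 groups (x axis), with lines at the mean and 1 SD; open points are narrow arrays. For Mrps24 the lowest CCAT2-G mouse, at 8.80, is above the highest CCAT2-T mouse, at 8.62, while for Mrpl38 the groups overlap.

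Among wide arrays alone the difference was as large as in the whole set, and among narrow ones it was small. Between CCAT2-G replicates 2 to 4 and CCAT2-T replicates 3 and 4, all wide, 68 of 76 members were higher and the median difference was 0.32, where all genes had 0.01. Between the narrow arrays of CCAT2-T (replicates 1 and 2) and of CCAT2-G (replicate 1), 47 of 76 were higher with a median of 0.05, and all genes had -0.0056. Mrps24 differed by 0.72 among wide and 0.65 among narrow arrays, whereas Mrpl16 differed by 0.73 and 0.04 and Mrpl3 by 0.76 and 0.0063. A fit with narrow arrays as a block gave a median of 0.22, and 70 members were higher. A single CCAT2-G mouse makes up the narrow set, so that value has no replicate.

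The probeset chosen for a gene mattered. For the 34 members with 1 probeset all 34 were higher, with a median of 0.30, and for the 42 with several, 39 of the brightest were, with a median of 0.29. Of the 80 other probesets of these genes, 46 were higher, with a median of 0.04. Among those other probesets with a mean level of at least 6, 19 of 25 were higher (median 0.23), and among the dimmer ones 27 of 55 (median -0.0031). Of the 42 genes, 22 had every probeset above the filter higher in CCAT2-G. With every probeset tested on its own, 114 of 144 were higher, and the median was 0.21.

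**Figure D4:**
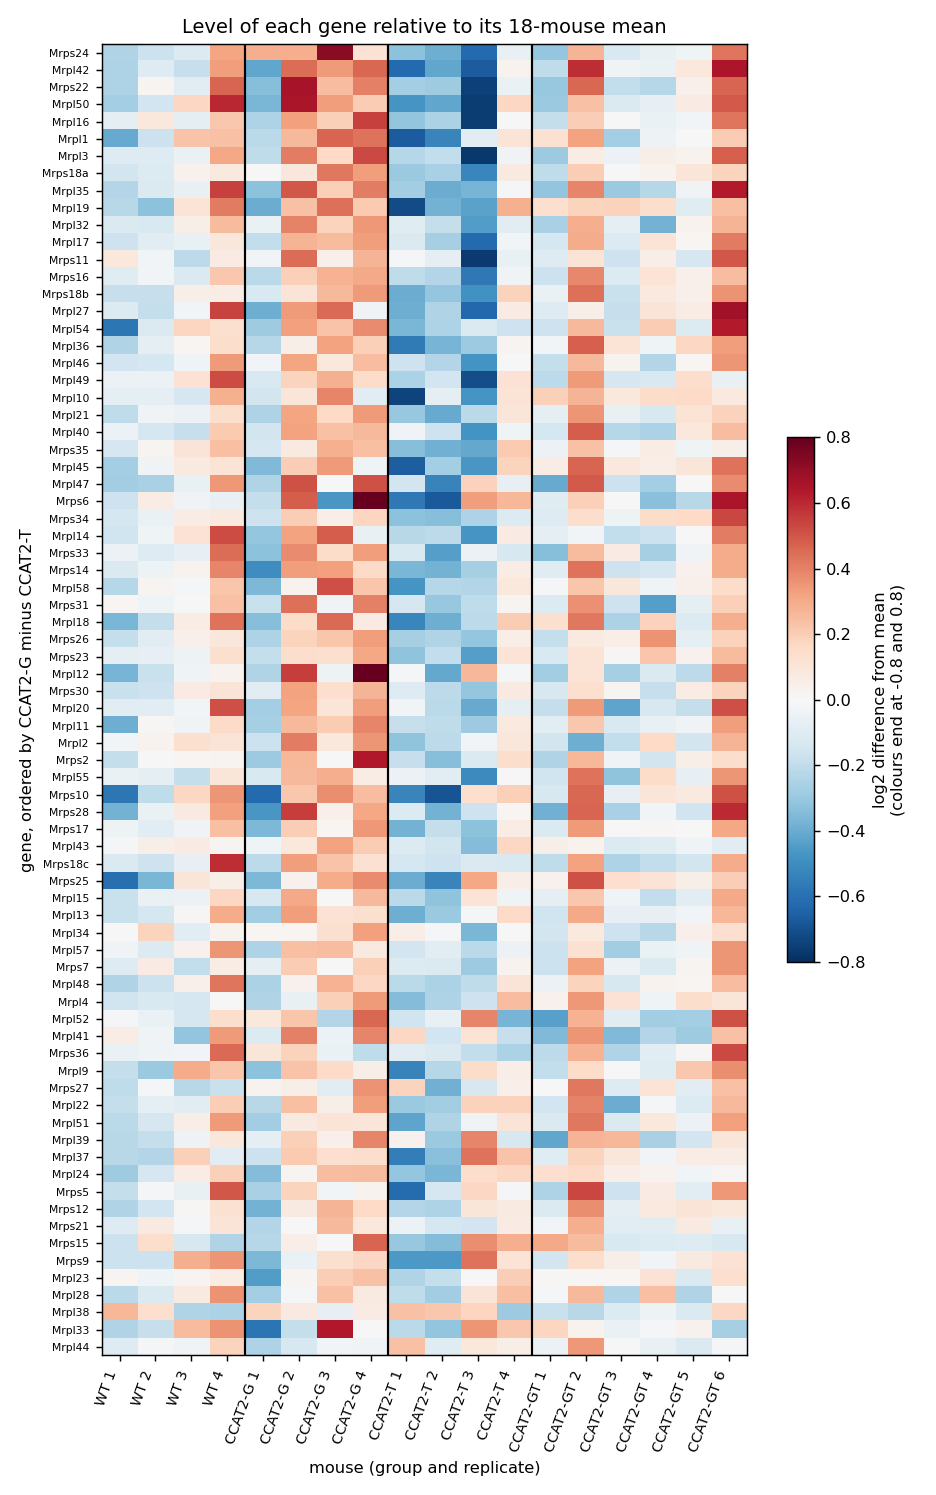
Log2 level of each of the 76 genes (rows, ordered by CCAT2-G minus CCAT2-T) relative to its 18-mouse mean in each mouse (columns), red above and blue below the mean, with colours ending at -0.8 and 0.8. CCAT2-G replicates 2 to 4, CCAT2-GT replicates 2 and 6 and WT replicate 4 are red over most rows, and CCAT2-T replicate 3 is darkest blue in the upper rows.

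Set against WT, the members were mostly higher with the G form and mostly lower with the T form, and none passed. The same 4 WT mice serve in both comparisons, so the values are given side by side and are not independent. CCAT2-G minus WT had a member median of 0.12, with 66 higher and 10 lower, and CCAT2-T minus WT had -0.17, with 8 higher and 68 lower. The medians over all genes were 0.01 and 0.0019. By limma 0 genes passed in either comparison (0% in each), and the smallest adjusted p among members was 1.00 and 0.928. At an unadjusted p under 0.05, CCAT2-G minus WT had 1 member higher (all genes 0.917%) and 0 lower (all genes 0.655%). CCAT2-T minus WT had 0 higher (all genes 1.7%) and 1 lower (all genes 1.41%). These counts are at the level of all genes. With a block for narrow arrays the CCAT2-G median against WT was 0.06, with 49 members higher, and with the interquartile range as a covariate the CCAT2-T median was -0.08, with 20 higher. Without the 3 mice highest in stroma markers, WT replicate 4 among them, the medians were 0.20 and -0.10. Among wide arrays alone they were 0.15 and -0.21. With the replicate block, which the pairing check allowed for CCAT2-T and WT, the CCAT2-T median stayed at -0.17, but 6 members instead of 1 had an unadjusted p under 0.05, where the count over all genes went from 451 to 723. Mrps24 was the 1 higher member, by 0.41 (SE 0.18) in CCAT2-G and -0.30 in CCAT2-T against WT. Mrpl49 was the 1 lower member, at -0.39 (SE 0.17) in CCAT2-T and -0.01 in CCAT2-G. Mrpl12 was at 0.41 (SE 0.21) and 0.10, and Mrpl16 at 0.17 and -0.37 (SE 0.18). WT mice themselves ranged widely: replicate 4 had 70 of 76 members above their mean and replicate 1 had 5.

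By the mean level of the members, marrow labelled CCAT2-GT lay between the groups with 1 form, at 7.55 ± 0.18 (SD, n = 6). CCAT2-G was at 7.62 ± 0.22 (SD, n = 4) and CCAT2-T at 7.34 ± 0.15 (SD, n = 4). In single genes CCAT2-GT marrow did not always lie between them. Against WT, 54 members were higher and 22 lower, with a median of 0.06, and against the mean of CCAT2-G and CCAT2-T 60 were higher and 16 lower, with a median of 0.08. The medians of all genes were -0.0017 and -0.0072. By limma 0 genes passed in either comparison (0% in each). Against WT, 0 members had an unadjusted p under 0.05 in either direction, where 1.19% of all genes were higher and 1.41% lower. Against the mean of the other transgenic groups 4 members were higher (all genes 4.03%) and 0 lower (all genes 5.64%), so the 4 are about the share of all genes. They were Mrpl45, which anchors the ribosome to the inner membrane, at 0.33 (SE 0.14), Mrpl36 at 0.28 (SE 0.12), Mrps34 at 0.24 (SE 0.10) and Mrpl10 at 0.27 (SE 0.13). In each of these genes the CCAT2-GT mean was above that of CCAT2-G and that of CCAT2-T, so it did not lie between them. The smallest adjusted p was 0.496. Neither direction held under every setting: among the 13 wide arrays alone the medians were -0.06 and -0.02, and with a block for narrow arrays they were -0.10 and -0.03. Without the 3 mice highest in stroma markers they were 0.10 and 0.05, and with the replicate block 0.0041 and 0.04. Replicates 5 and 6 exist only in CCAT2-GT, so the block takes them up and its values rest on the other mice. Leaving out CCAT2-GT replicate 6 alone gave 0.0033 and 0.03. The pairing check did not allow the block for CCAT2-GT. Against the mean of the other transgenic groups, the 4 members became 1 without those 3 mice and 0 without the Xist-high arrays. Over all genes the count with an unadjusted p under 0.05 by limma went from 1402 to 622 and 1384. No CCAT2-GT array was narrow. Marker levels also moved with this group, and their part in these values was not tested. All 10 B-cell markers were lower, with a median of -1.28 against WT and -1.43 against the mean of the other transgenic groups. Their mean level, 5.1 to 7.3 in CCAT2-GT, was 8.47 and 8.38 in the narrow WT replicates 1 and 2. In the wide WT replicates 3 and 4 it was 6.80 and 6.47, within the CCAT2-GT range. In CCAT2-G and CCAT2-T, narrow arrays were at 8.25 to 8.58 and wide ones at 5.49 to 8.42. The part of array spread in these marker differences was not tested. All 7 monocyte markers were higher, with medians of 0.36 and 0.53, and 3 and 4 of the 4 early myeloid markers were higher, with medians of 0.23 and 0.48. By limma 0 of these markers passed.

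Against WT, Mrps25 had the smallest p in CCAT2-GT mice. It ran from 6.67 to 7.15 with a median of 6.76 there and stood at 6.04, 6.28, 6.73 and 6.69 in WT, so WT replicates 3 and 4 lay within the CCAT2-GT range and the narrow replicates 1 and 2 below it. The difference was 0.38 (SE 0.19). With array weights in limma it was 0.52 and passed, with adjusted p = 0.0461, the 1 call of a member under any setting tried. In that fit 443 of all 14505 genes passed, beside 1 of 76 members. Under the other settings the adjusted p of Mrps25 by limma was 0.656 to 1.00, and a block for narrow arrays left a difference of 0.08. Mrps27 differed by 0.25 (SE 0.13).

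Other gene families of mitochondrial translation were higher in CCAT2-G than in CCAT2-T too, with lower medians. The lists hold 76 entries, of which 68 were measured: 55 were higher, with a median of 0.16, and 0 passed. At an unadjusted p under 0.05, 7 of 68 were higher and 1 lower, where 4.21% of all genes were higher and 2.08% lower. Of 4 mitoribosome proteins under other names 3 were higher. Chchd1 differed by 0.51 (SE 0.24) and Dap3, which binds GTP in the small subunit, by -0.0028 (SE 0.14). Translation factors were higher in 8 of 10 cases, led by Tufm, the elongation factor Tu, at 0.36 (SE 0.14). Enzymes that charge or amidate mitochondrial tRNAs were higher in 16 of 18, led by the tyrosyl enzyme Yars2, at 5.97 ± 0.33 (SD, n = 4) in CCAT2-G and 5.10 ± 0.59 (SD, n = 4) in CCAT2-T, a difference of 0.87 (SE 0.26). Assembly and rRNA modification factors were higher in 20 of 25. Among them Malsu1, which acts on the large subunit, differed by 0.57 (SE 0.18) and the pseudouridine synthase Rpusd3 by -0.34 (SE 0.12). Of 11 genes that copy, transcribe or handle the mitochondrial genome or insert its products, 8 were higher, with the insertase Oxa1l at 0.37 (SE 0.12) and the DNA polymerase Polg at -0.32 (SE 0.22).

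Respiratory chain subunits and cytosolic ribosomal proteins differed less than the mitochondrial ribosomal proteins. The 78 respiratory chain genes measured had a median of 0.15, with 64 higher. The 41 cytosolic ribosomal protein genes had a median of 0.09, with 31 higher. At an unadjusted p under 0.05, 13 of 78 and 5 of 41 were higher and 0 lower, against the same shares of all genes, 4.21% and 2.08%. The gap between the families was not tested.

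**Figure D5:**
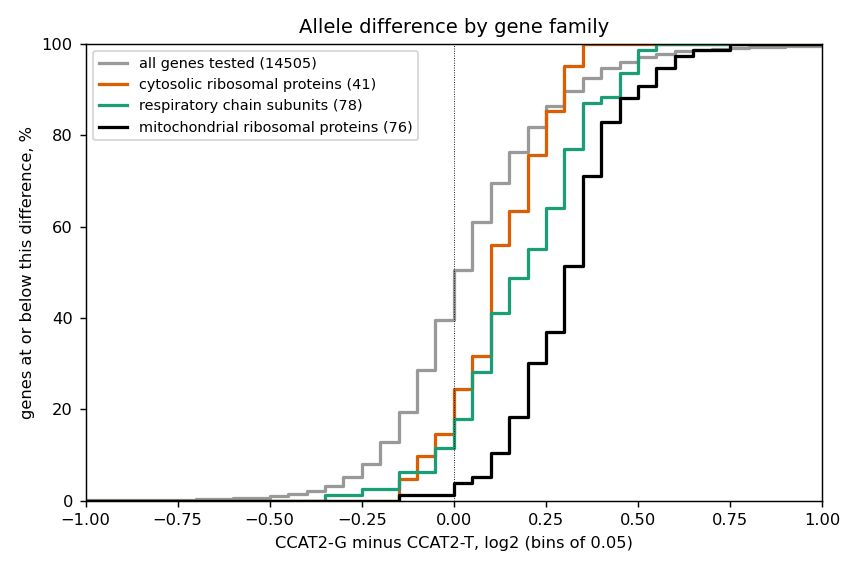
Share of genes (%, y axis) at or below each value of CCAT2-G minus CCAT2-T (log2, x axis, bins of 0.05) for all 14505 genes tested, 41 cytosolic ribosomal protein genes, 78 respiratory chain genes and the 76 mitochondrial ribosomal protein genes. The curve of the last lies farthest to the right up to a difference of 0.60, with a median of 0.30 against -0.0031 for all genes.

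Markers of other marrow cells moved with the groups in part. All 5 megakaryocyte markers measured were higher in CCAT2-G than in CCAT2-T, with a median of 1.23, and their mean level ran from 8.05 to 9.52 in CCAT2-G and from 6.51 to 7.95 in CCAT2-T, without overlap. It was 7.93 to 9.67 in WT and 6.52 to 11.1 in CCAT2-GT. All 8 stroma and endothelium markers were higher, with a median of 0.59 and levels of 5.32 to 6.40 against 4.45 to 5.98. Monocyte markers were higher in 6 of 7 cases, with levels of 8.09 to 9.20 against 7.96 to 8.70. Of these lists 0 genes passed the test. With the megakaryocyte level as a covariate the member median was 0.22, 73 members were still higher and 7 had an unadjusted p under 0.05 (all genes 587, from 912), and with the stroma level it was 0.26. The part that these cells play in the difference was not tested further.

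Levels of erythroid, neutrophil, B-cell and cell division markers overlapped between CCAT2-G and CCAT2-T, with median differences of -0.11, -0.08, -0.20 and 0.06. The mean of the erythroid markers was 10.2 to 11.1 in CCAT2-G and 10.5 to 11.0 in CCAT2-T, with 2 of 10 higher, and that of the neutrophil markers 11.8 to 12.6 and 12.1 to 12.4, with 2 of 9 higher. B-cell markers were at 5.49 (CCAT2-G replicate 3) to 8.58 and 6.98 to 8.33, with 4 of 10 higher. Cell division genes were at 9.37 to 9.87 and 9.33 to 9.84, with 6 of 9 higher. Muscle markers were high in CCAT2-T replicate 1 and WT replicate 4, at 6.18 and 6.68, and at most 5.20 elsewhere. With the cell division level as a covariate the member median was 0.26, and with the erythroid level 0.30. Without the 4 Xist-high arrays it was 0.28, with 75 of 76 members higher. There 4 members had an unadjusted p under 0.05, and over all genes the count fell too, from 912 to 406.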

How the data were processed

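The authors deposited log2 expression values, 1 column for each of 18 arrays and 1 row for each of 45101 probesets, made with RMA per the submitters' processing notes. Which version and software were used is not given in the sources used here. RNA came from bone marrow cells by Trizol extraction and was labelled as biotinylated cRNA, per the labels' protocols. Arrays have no read depth, and their number limits the precision.

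Probesets were named by the platform annotation: 34958 had 1 symbol, 932 several and 9211 none, and only the first kind was used. The brightest probeset stood for a gene, and a gene was tested where its mean reached the 30th percentile of the means of all probesets (3.30). Group means were fitted with limma 3.58.1 (R 4.3.3; lmFit, then eBayes with its trend option) for the 4 groups on all 18 arrays, for 5 comparisons, with Benjamini-Hochberg adjustment over 14505 genes and a threshold of 0.05. The procedure was tested on simulated data. Groups and replicate numbers came from the labels. Same-numbered WT and CCAT2-T mice deviated together (correlation 0.19 to 0.57 in 4 pairs), which the labels do not explain. Differently numbered mice of these groups ran from -0.63 (WT replicate 3, CCAT2-T replicate 1) to 0.52 (WT replicate 1, CCAT2-T replicate 2). In both groups replicates 1 and 2 are the narrow arrays, and the parts of number and array spread were not tested. No other pair of groups met the bar of 0.1 in every pair.

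The members and lists were chosen with earlier results of these data known. Genes named are the 8 of smallest p in each direction for CCAT2-G minus CCAT2-T, the 3 for each other comparison, the 3 brightest, dimmest and most variable, a list of 15 named whatever their values, and the 1 of smallest p per direction in each other translation list. Some of these are not printed. Alternatives changed the normalization, filter, probeset rule, variance model, weights, covariates or blocks, or left out arrays. Those with the megakaryocyte level, the stroma level or the interquartile range as a covariate were chosen after seeing the data. Promoter letters were matched in RefSeq windows by exact search.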

Additional observations from a re-analysis of the deposited data

Results flagged for a closer look

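In groups of 4 to 6 mice, a mouse was singled out where its gap to the nearest other mouse, divided by the range of the group, passed Dixon's 95% critical value. Of 204 groups tested, 19 had such a mouse. Chance alone gives about 1 in 20 for a single test. The genes share mice and varied together, so the 204 are not separate tests and the 19 cannot be set against that rate.

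CCAT2-G replicate 1, on a narrow array, was the low mouse in 6 of these. The ratio was 0.862 for the median of the mitochondrial ribosomal protein genes, where it lay at -0.24 and the next mouse at 0.19. It was 0.860 for Mrpl42, 0.846 for Mrpl17, 0.917 for Mrpl51, 0.866 for the release factor Mtrf1l and 0.899 for Malsu1. Without that mouse the median difference between CCAT2-G and CCAT2-T was 0.43. In the same group CCAT2-G replicate 3 was high in Polg (0.861), at 6.67 against 6.34 for the next mouse.

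CCAT2-T replicate 4 was the high mouse for the median of the genes, at 0.06 with the next at -0.21 (ratio 0.853), and for Mrps35 (0.897), and the low mouse for Mrpl38 (0.886). Without it the median difference was 0.36.

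WT replicate 4, which also had high stroma, megakaryocyte and muscle markers, was high in Mrpl3 (0.883), Mrps36 (0.933), Mrpl10 (0.856), Mrps18c (0.866) and Chchd1 (0.931). In WT replicate 1 Mrps2 was low (0.871), at 6.56 against 6.74. CCAT2-GT replicate 2, a mouse with high Xist, was high in Mrpl44 (0.746), Mrps35 (0.627) and Mrps25 (0.658). The part of array spread, cell makeup or sex in these values was not tested.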

How the results depend on the processing

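Over 21 alternatives the median member difference of CCAT2-G minus CCAT2-T stayed between 0.21 (every probeset tested) and 0.39 (array weights), and leaving out 1 mouse gave 0.23 (without CCAT2-G replicate 4) to 0.43 (without CCAT2-G replicate 1). No member passed in any of them. The count of members with an unadjusted p under 0.05, 24 in the main fit, fell to 7 without CCAT2-T replicate 3, to 10 without CCAT2-G replicate 4, to 14 without CCAT2-G replicate 3 and to 13 without CCAT2-G replicate 2, CCAT2-T replicate 1 or CCAT2-T replicate 2. It was 42 without CCAT2-G replicate 1, 35 without CCAT2-T replicate 4, 55 with array weights and 14 with the compared groups alone. The count over all genes moved too: 912 in the main fit, 536, 542, 1007 and 640 without CCAT2-T replicate 3 or CCAT2-G replicates 4, 3 or 2, 797 and 860 without CCAT2-T replicates 1 or 2, then 1684, 1499, 2753 and 801 in the last 4. Genes past the threshold rose from 0 to 1 with quantile normalization, the filter at the 50th percentile or the cell division covariate, and ranged from 0 to 1 when 1 mouse was left out (without CCAT2-T replicate 1 or CCAT2-GT replicate 3). With array weights 443 genes and 1 member passed in CCAT2-GT minus WT and 215 genes in CCAT2-GT minus the mean of CCAT2-G and CCAT2-T, a comparison where leaving out 1 mouse gave 0 to 9 genes (9 without CCAT2-G replicate 3). The cause was not tested.

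Across single-mouse omissions the medians were 0.07 to 0.23 for CCAT2-G minus WT, -0.24 to -0.10 for CCAT2-T minus WT, -0.0025 to 0.14 for CCAT2-GT minus WT and 0.02 to 0.11 for CCAT2-GT minus the mean of CCAT2-G and CCAT2-T. With the replicate block the median of CCAT2-G minus CCAT2-T was 0.30, and 28 members had an unadjusted p under 0.05. Same-numbered mice of different groups had deviations that correlated by -0.36 to 0.67 (24 pairs), and other pairs by -0.63 to 0.60. For CCAT2-G and CCAT2-T the 4 pairs were at 0.44, 0.26, 0.28 and 0.02, so the numbers were not taken as pairs there. The block changed no call.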
